A study of Mus musculus with 2 samples.

Results

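Zymogen granule proteins and protease inhibitors are secretory products of the pancreatic acinar cell that travel with, or guard against, the digestive enzymes but are not themselves zymogens. The group was defined by gene name, and 8 of the 9 names in the rule were found among the 44713 genes of the count table (Gp2, Zg16, Sycn, Spink3, Rnase1, Serpini2, Dmbt1 and Tff2). The other name, Spink1, is the present symbol of the gene that the table lists as Spink3, so each gene of the group was measured. The study profiled RNA of mouse pancreatic islets, with 1 db/db library and 1 db/m library analysed here. Both came from C57BL/6 mice. The db/db library carries the genotype label Lepr-/- (Lepr encodes the leptin receptor, and db/db mice become obese and diabetic). Its control, the db/m library, is labelled wild type. Whether the control mice carried 1 db allele, as the title db/m may be read, was not found. Neither age, sex, treatment nor the number of animals behind a library was found in the sources used here, although the series describes triplicates. With 1 library per group there is no replicate error and no p-value. Each ratio of db/db over db/m carries an exact 95% interval that covers counting error only and describes these libraries, not the genotypes.

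Acinar cells package digestive enzymes as inactive precursors in zymogen granules and release them into the pancreatic duct when stimulated by a meal. The granule membrane and matrix hold proteins with structural or protective roles, such as the membrane glycoprotein GP2, the lectin ZG16 and syncollin, and the granule content includes a ribonuclease and a small inhibitor that blocks trypsin activated too early. Islets make little of these products, so in an islet preparation they report on the exocrine tissue that comes with it.

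The libraries held 18233695 (db/db) and 16271129 (db/m) counts. Exocrine RNA dominated both, although the labels give islet cells as the source: a list of 29 digestive enzyme genes took 68.4% of counts in db/db and 68.6% in db/m, and 9 islet hormone and granin genes took 0.202% in db/db and 0.151% in db/m. The 8 genes described here summed to 1205796 counts in the db/db library, or 6.61% (exact binomial interval 6.60% to 6.62%), and to 1250493 counts in the db/m library, or 7.69% (7.67% to 7.70%). In such bulk RNA, fewer acinar cells and less RNA per acinar cell cannot be told apart.

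Within the group, Dmbt1 and Tff2 were lower in the db/db library (2.05-fold and 2.21-fold, but short of the 2-fold limit when libraries were scaled by total or digestive enzyme counts), Sycn was the sole gene with a ratio above 1 (Rnase1 joined it under those scalings), and the other 5 lay between. Levels are given as CPM, counts scaled to the size of each library after a TMM correction (a trimmed mean over genes that offsets differences in make-up), and a call needed a ratio of at least 2-fold, an interval that excludes 1 and a mean of no less than 1 CPM. All 8 genes passed that minimum. By this rule 2 were lower, 0 were higher and 6 were neither, against 4.04% lower and 3.83% higher among the 10300 genes compared. The median log2 ratio of the 8 genes was -0.34, beside -0.19 for the digestive enzymes and 0.02 for all genes compared. TMM and DESeq2 size factors placed the libraries almost alike, whereas total counts and the summed digestive enzyme counts raised every log2 ratio, and the median of all genes, by 0.18. Scaled by total counts, 0 of the 8 genes were called, against 2.69% of all genes lower, and scaled by enzyme counts 0 were called as well, against 2.63% lower. At a limit of 1.5-fold with TMM, Serpini2 joined the lower genes, which made 3 of 8 beside 8.87% of all genes.

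**Figure D1:**
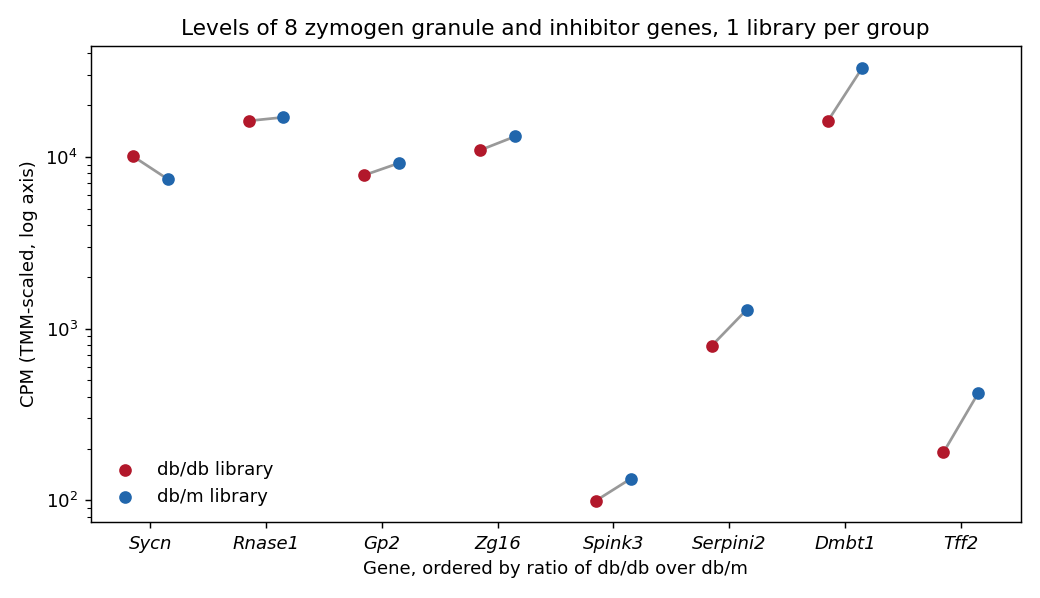
Levels of the 8 genes in TMM-scaled CPM on a log axis, with the db/db library on the left of each pair and the db/m library on the right; genes run by their ratio, and there is 1 library per group, so no error bars. On this scale Sycn is the only pair with the db/db point above the db/m point (with total or digestive enzyme counts Rnase1 is another), and the gap is widest for Dmbt1 and Tff2.

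Dmbt1 (chromosome 7, 131032057 to 131121628 in GRCm38) encodes a large secreted glycoprotein with repeated scavenger receptor domains, known as muclin in the mouse pancreas, where its product enters zymogen granules. It had 312048 counts in db/db and 506518 in db/m. These correspond to 16106 CPM in db/db and 33078 CPM in db/m. The ratio was 0.487 (0.485 to 0.489), a 2.05-fold lower level that stands just past the 2-fold limit, and it was 0.550 with total counts and 0.552 against the digestive enzymes. Dmbt1 alone took 1.71% of all counts in db/db and 3.11% in db/m, and 25.9% of the group's counts in db/db against 40.5% in db/m. Without it the ratio of the group's summed counts was 0.949 rather than 0.762 with TMM, and 1.07 with total counts, so the direction of the remaining 7 genes' sum turned with the scaling. How reads that match several places were counted was not found in the sources used here, which bears on a gene built of repeats.

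Tff2 (chromosome 17, 31141062 to 31144282) encodes trefoil factor 2, a small secreted peptide that protects mucosal surfaces, first purified from pig pancreas. It had 3686 counts (190 CPM) in db/db and 6448 counts (421 CPM) in db/m. The ratio of 0.452 (0.434 to 0.471) made it the lowest of the group, 2.21-fold below db/m, and with total counts it was 0.510, short of the limit. Tff2 is also a product of mucous cells of stomach and duodenum, so markers of such cells were read beside it. Of 15 mucous and goblet cell markers 7 were at 0 in both libraries, among them Tff1, Tff3, Gkn1, Gkn2, Pgc and Fcgbp. A count of 0 allows up to 0.155 CPM in db/db and 0.196 CPM in db/m. Muc6 had 5 counts in db/db and 3 in db/m, and Muc5ac had 7 in db/db and 0 in db/m. The summed level of the list was 25.3 CPM in db/db and 66.1 CPM in db/m, a ratio of 0.383 (0.344 to 0.428). It was carried mostly by Galnt6, a glycosyltransferase gene with 249 counts in db/db and 753 in db/m. The Galnt6 ratio was 0.261 (0.226 to 0.302), called lower with each of the 4 scalings. Spdef and Lgals4 were the other markers of the 3 that reached 1 CPM. Spdef had 143 counts in db/db and 154 in db/m (ratio 0.734), and Lgals4 had 84 in db/db and 98 in db/m (ratio 0.677). A part of mucous cells in the Tff2 value was not tested. Tff1 and Tff3, the trefoil genes on either side of Tff2 on chromosome 17, thus gave 0 counts.

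The proteins that line the granule membrane did not share a single ratio. Syncollin (Sycn, chromosome 7, 28540885 to 28542210) binds the inner face of the granule membrane and acts in granule fusion. Sycn had 195421 counts (10086 CPM) in db/db and 113729 counts (7427 CPM) in db/m. Its ratio of 1.36 (1.35 to 1.37) was within the 2-fold limit, and it was 1.53 with total counts and 1.54 against the digestive enzymes. GP2 (Gp2, chromosome 7, 119442537 to 119459272), the most abundant glycoprotein of the granule membrane and a relative of uromodulin, had 151606 counts (7825 CPM) in db/db and 140872 counts (9200 CPM) in db/m. Its ratio was 0.851 (0.844 to 0.857), and 0.960 with total counts. The lectin gene Zg16 (chromosome 7, 127050156 to 127052675), whose product links the granule matrix to the membrane, had 211969 counts (10940 CPM) in db/db and 201114 counts (13134 CPM) in db/m, a ratio of 0.833 (0.828 to 0.838). Gp2 and Zg16 kept almost the same proportion, with 0.715 Gp2 counts per Zg16 count in db/db and 0.700 in db/m. Sycn did not follow them, at 1.29 Sycn counts per Gp2 count in db/db against 0.807 in db/m.

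Rnase1 (chromosome 14, 51145002 to 51146767), the pancreatic ribonuclease that digests dietary RNA, had the TMM ratio nearest to 1. It had 313721 counts (16192 CPM) in db/db and 260062 counts (16983 CPM) in db/m. The ratio of 0.953 (0.948 to 0.958) became 1.08 with total counts and 1.08 with digestive enzyme counts, so the direction of Rnase1 was set by the scaling. Of its relatives, Rnase4 stood at 144 CPM in db/db and 147 CPM in db/m, and angiogenin (Ang) at 28.4 CPM in db/db and 32.3 CPM in db/m, both neither. The ratios of Rnase4 and Ang were 0.981 and 0.880 with TMM, and Rnase4 was at 1.11 with total counts. Rnaset2a and Rnaset2b, lysosomal ribonuclease genes of another family, named after their values were seen, had ratios of 1.34 and 1.24 and were neither as well.

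**Figure D2:**
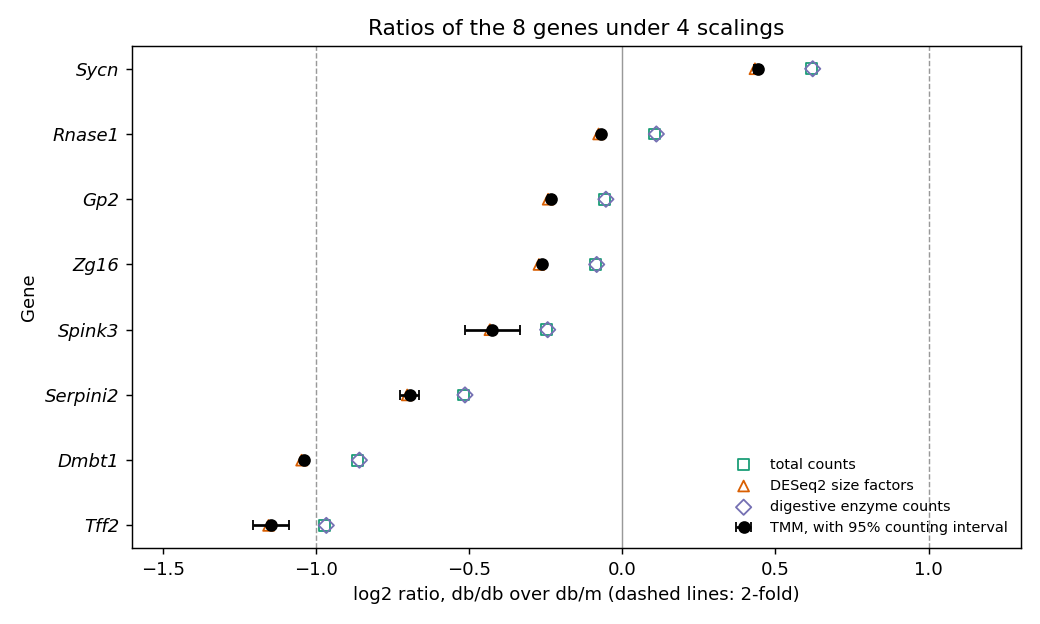
The log2 ratio of db/db over db/m for each gene (rows) under 4 scalings; filled circles with bars are TMM values with 95% counting intervals, open symbols the other scalings, and dashed lines mark 2-fold. Dmbt1 and Tff2 lie just beyond the lower line with TMM and DESeq2 size factors and just inside it with total counts and digestive enzyme counts, and Rnase1 crosses 0.

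The protease inhibitors Spink3 and Serpini2 both had ratios below 1 under each of the 4 scalings. Spink3 (chromosome 18, 43728069 to 43737237) encodes the small inhibitor stored with trypsinogen in the granule. Spink3 had 1930 counts (99.6 CPM) in db/db and 2046 counts (134 CPM) in db/m, a ratio of 0.746 (0.700 to 0.794). Since its partner in the granule is trypsinogen, it was also set against the 13 listed trypsinogen genes, whose summed counts were 2302510 in db/db and 1943555 in db/m. Spink3 counts came to 0.0838% of the trypsinogen counts in db/db and 0.105% in db/m, a ratio of 0.796 (0.748 to 0.848, with the trypsinogen sums taken as fixed) that needs no scaling of libraries. Against Prss2 and Try5 alone the ratio was 0.676. That pair leaves out 2210010C04Rik, the trypsinogen gene with the most counts in both libraries (678170 in db/db and 658023 in db/m). Both size and direction of the Spink3 proportion depend on the trypsinogen genes chosen, of which 8 were called higher in db/db and 1 lower. The TMM ratio was 0.654 for Try4, below the 0.746 of Spink3, so against Try4 alone Spink3 would stand higher in db/db. It was 0.784 for Prss2, 0.815 for 2210010C04Rik and 1.59 for Try5. The trypsinogen genes are close copies of each other, and reads may be split between them in counting, which the sum over the family avoids in part. Counts are not corrected for transcript length, so the proportions describe change between libraries, not molecules of inhibitor per molecule of trypsinogen.

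Serpini2 (chromosome 3, 75242357 to 75270078) encodes pancpin, a serpin made mainly in the pancreas, whose loss in mice leads to the death of acinar cells. Serpini2 had 15415 counts (796 CPM) in db/db and 19704 counts (1287 CPM) in db/m. The ratio of 0.618 (0.605 to 0.632), or 1.62-fold below db/m, was within the 2-fold limit. Its brain counterpart Serpini1, neuroserpin, had 15.9 CPM in db/db and 15.2 CPM in db/m, a ratio of 1.05 (0.885 to 1.25). Among 39 other protease inhibitor genes 12 reached 1 CPM, and of these 0 were higher, 1 was lower (Serpinh1, a collagen chaperone of the serpin family, 73 counts in db/db and 124 in db/m, a ratio of 0.465 that was 0.525 and no call with total counts, named after its values were seen) and 11 were neither. The 12 had a median log2 ratio of -0.46. The inter-alpha-trypsin inhibitor heavy chain gene Itih4 was at 62.0 CPM in db/db and 102 CPM in db/m, and the leukocyte elastase inhibitor gene Serpinb1a at 60.9 CPM in db/db and 91.8 CPM in db/m. The 10 other Spink genes on the list were at 0 in both libraries, so Spink3 was the only listed member of the trypsin inhibitor family with reads.

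The proportions between the 8 genes do not depend on scaling. Of the 28 pairs, 4 changed their count ratio at least 2-fold between the libraries and 2 by less than 1.1-fold. The widest change was that of Sycn to Tff2, with 53.0 Sycn counts per Tff2 count in db/db and 17.6 in db/m, a 3.01-fold change (2.88 to 3.13). Sycn to Dmbt1 changed 2.79-fold (2.77 to 2.81), Sycn to Serpini2 2.20-fold (2.15 to 2.25) and Rnase1 to Tff2 2.11-fold (2.03 to 2.20). Dmbt1 and Tff2 moved nearly together, with 84.7 Dmbt1 counts per Tff2 count in db/db and 78.6 in db/m, and Gp2 and Zg16 formed the closest pair (1.02-fold, 1.01 to 1.03). The intervals of all 28 pairs excluded 1, which at these depths says little, since no replicate shows how far libraries of 1 group differ.

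**Figure D3:**
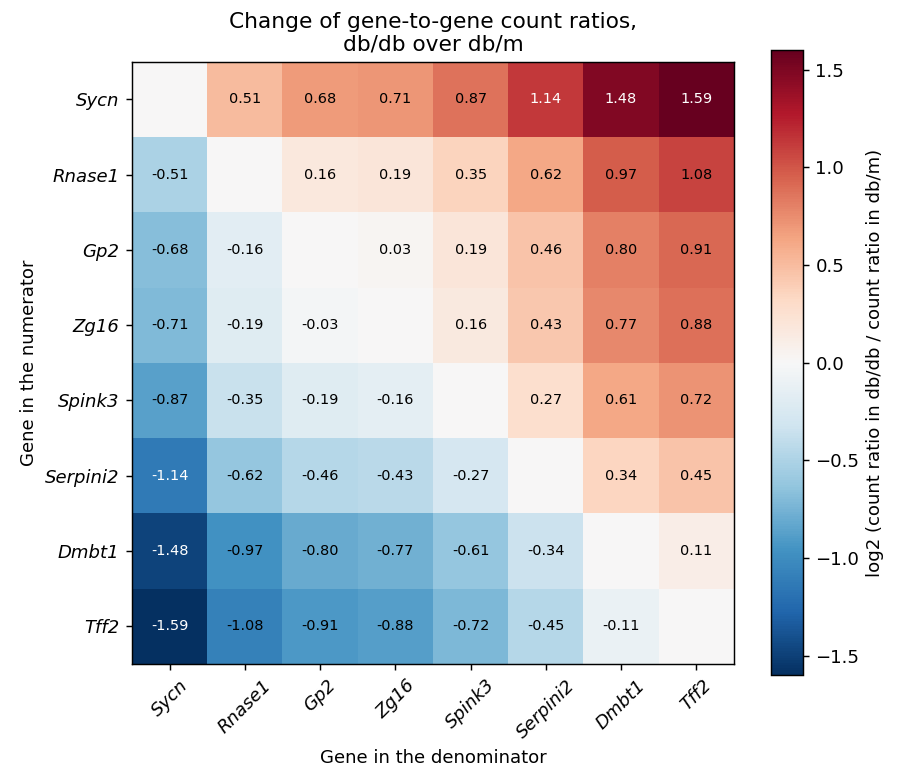
Each cell gives the log2 change, db/db over db/m, of the count ratio of the row gene to the column gene, free of library scaling (red, higher in db/db; blue, lower). The row of Sycn is positive throughout, reaching 1.59 against Tff2, and the cells for Gp2 with Zg16 and for Dmbt1 with Tff2 are close to 0.

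Promoter sequence from RefSeq (GRCm38.p6, 250 bases before to 50 after the start site) was matched by symbol for 4 of the 8 genes. Sycn and Serpini2 are shown because their count ratio changed most among those 4, and Gp2 because it holds each motif searched. Capitals mark TTCCCA or its reverse complement TGGGAA, the core of the part of the acinar PTF1 element that RBPJ proteins bind.
Sycn: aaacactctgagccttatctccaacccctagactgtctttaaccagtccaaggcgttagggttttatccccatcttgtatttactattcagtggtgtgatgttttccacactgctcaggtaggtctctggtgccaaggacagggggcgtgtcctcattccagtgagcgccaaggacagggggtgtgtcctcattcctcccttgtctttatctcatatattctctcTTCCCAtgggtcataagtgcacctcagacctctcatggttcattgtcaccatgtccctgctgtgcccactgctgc
Gp2: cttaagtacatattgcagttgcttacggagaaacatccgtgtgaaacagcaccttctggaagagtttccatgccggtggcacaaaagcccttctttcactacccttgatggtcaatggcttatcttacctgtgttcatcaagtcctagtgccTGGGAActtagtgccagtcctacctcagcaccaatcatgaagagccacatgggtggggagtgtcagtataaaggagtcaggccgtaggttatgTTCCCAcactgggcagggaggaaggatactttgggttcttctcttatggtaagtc
Serpini2: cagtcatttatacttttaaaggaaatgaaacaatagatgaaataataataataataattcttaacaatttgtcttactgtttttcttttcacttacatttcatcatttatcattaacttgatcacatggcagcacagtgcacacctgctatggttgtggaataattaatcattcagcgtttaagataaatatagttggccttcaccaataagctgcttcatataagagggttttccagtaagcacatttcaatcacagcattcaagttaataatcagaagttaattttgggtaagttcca
The windows are chr7:28540635-28540934 on the plus strand for Sycn, chr7:119459223-119459522 on the minus strand for Gp2 and chr3:75270029-75270328 on the minus strand for Serpini2. Searched on both strands, TTCCCA was found in 3 of the 4 windows (Sycn, Gp2 and Rnase1) and in 25.6% of all 32851 windows. In Sycn it began 25 bases before the start site, in Rnase1 190 bases before it, and in Gp2 at 98 and 5 bases before it. The E-box CANNTG, the other part of that element and its own reverse complement, occurred in Gp2 and Serpini2 and in 72.3% of all windows. TATAAA occurred in Gp2, 32 bases before the start, in Serpini2 as its reverse complement 244 bases before it, and in 13.6% of all windows. No motif found overlapped another, and these matches are descriptions of letters, not of binding.

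Among the 26 of 29 digestive enzyme genes that average at least 10 CPM, those with the nearest log2 ratio, a likeness over only these 2 libraries, were Ctrl for Rnase1 (ratio 0.955), Klk1 for Gp2 (ratio 0.877), Cpb1 for Zg16 (ratio 0.815), Cela2a for Spink3 (ratio 0.743), Try4 for Serpini2 (ratio 0.654) and Amy2a5, a pancreatic amylase gene, for both Dmbt1 and Tff2 (ratio 0.449). For Sycn the nearest of the 26 was the lipase-related gene Pnliprp1, with a ratio of 1.22. The other Amy2a genes ran from 0.374 (Amy2a4, 36 counts in db/db and 76 in db/m) to 1.24 (Amy2a3, 129 and 82). Amy2a1 had a ratio of 0.679, and Amy2b, with the most counts of the amylase genes, 0.394. How reads that match several of these genes were counted was not found, which bears on the Amy2a5 ratio. The digestive enzymes as a list had 3 higher, 5 lower and 21 neither (3 higher and 3 lower with total counts). Their log2 ratios ran from -1.51 for the phospholipase gene Pla2g1b to 3.60 for the trypsinogen gene Prss3, and those of the 8 genes here from -1.15 to 0.44. A range grows with the number of genes, so the 2 ranges do not compare like with like.

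**Figure D4:**
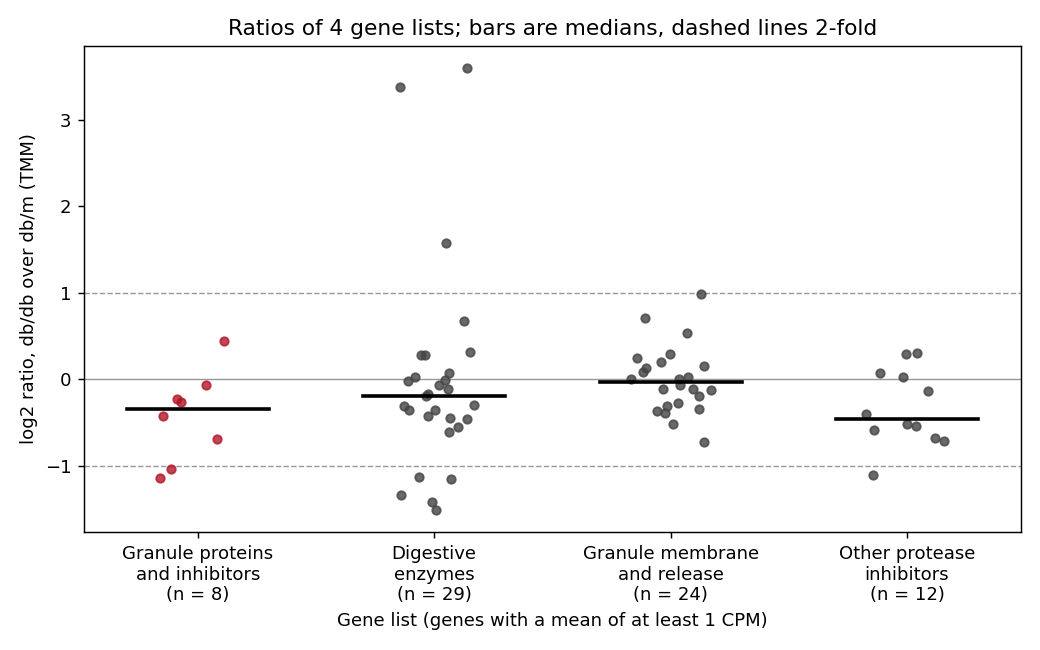
Log2 ratios (TMM) in 4 lists, of genes that average 1 CPM or more; each point is a gene, bars are list medians and dashed lines mark 2-fold. The 8 granule and inhibitor genes have a median of -0.34 and lie within the range of the digestive enzymes.

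Genes of the granule membrane and of its release machinery were called in 0 of 24 cases, with a median log2 ratio of -0.04 that was 0.14 with total counts, where Vamp2 was called higher (2.24-fold). Rab3d, a GTPase of mature zymogen granules, was at 155 CPM in db/db and 107 CPM in db/m, a ratio of 1.45 (1.37 to 1.54). Vamp2, a vesicle fusion protein shared with islet cells, was at 31.5 CPM in db/db and 15.9 CPM in db/m (1.98-fold, 1.71 to 2.31), and carboxypeptidase E (Cpe), also an islet granule enzyme, at 37.6 CPM in db/db and 23.1 CPM in db/m. Of 9 islet hormone and granin genes 5 were higher in db/db (Gcg, Sst, Ppy, Pyy and Chgb, from 3.99-fold to 8.79-fold), 1 was lower (Ins1, which was no call with total counts) and 3 were neither, with a median log2 ratio of 1.99, and their summed counts, of which Ins2 (ratio 1.05) gave the most, had a ratio of 1.18 (1.16 to 1.20). Their part in the Vamp2 and Cpe values was not tested. The membrane mucin gene Muc1 stood at 71.8 CPM in db/db and 119 CPM in db/m, a ratio of 0.605 (0.564 to 0.650), and Cuzd1, a zymogen granule membrane protein, at 1718 CPM in db/db and 2124 CPM in db/m. Vamp8, the main fusion protein of the zymogen granule, did not separate the libraries (28.4 CPM in db/db and 28.3 CPM in db/m).

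Markers of duct cells and M cells, which can express some of these genes, were read as well. Summed over 12 duct markers, which bear on Dmbt1 since duct cells also make it, the level was 288 CPM in db/db and 416 CPM in db/m (ratio 0.692, 0.668 to 0.718), with 0 of 9 genes over 1 CPM called. Most of this sum came from Krt18, Krt8 and Muc1, the last also on the granule membrane list. Of the 9 genes 7 had ratios below 1. The 2 above it were Krt19 (1.22, 0.989 to 1.51) and Krt7 (1.28, 0.837 to 1.99). The sum is therefore no clear measure of duct cells, and their part in the Dmbt1 value was not tested. Summed over 5 markers of gut M cells, which carry GP2, there were 32 counts in db/db and 24 in db/m. All 5 markers were under 1 CPM. Most of these counts came from Marcksl1 (15 in db/db and 15 in db/m) and Spib (15 in db/db and 2 in db/m). A part of M cells in the Gp2 value was not tested. Within 20 kb of the 8 genes the annotation lists 15 other genes, of which 0 overlap a member. The 12 found in the table had at most 74 counts in a library, and Umod, the uromodulin gene next to Gp2, had 52 counts in db/db and 33 in db/m.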

How the data were processed

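Whole-number counts per gene, deposited by the authors as raw counts without normalization, were used for 1 db/db and 1 db/m library. The submitters' processing notes name HISAT2 2.0.4 as aligner and mm10 and GRCm38 as builds; the counter, annotation, strandedness and handling of multiply matching reads were not given in the sources used here. Per the labels' protocols, islets were purified on a Histopaque gradient and ribosomal RNA was removed. Groups came from the library titles.

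Counts were scaled with TMM (edgeR 4.0.16, R 4.3.3) to CPM, where 1 count stands for 0.0516 CPM in db/db and 0.0653 CPM in db/m. Ratios have Clopper-Pearson counting intervals (scipy 1.17.1 in Python 3.11.15, with numpy 2.4.6 and pandas 2.3.3), and changes of count ratios between genes have normal-approximation intervals from the counts. PCR copies are not independent molecules, so intervals cover counting error only. A floor of 3 counts stood for 0. No test was run. The scripts were tested on simulated counts with counting error only, scaled by total counts, which leaves the TMM step and the spread between libraries untested. Named are mainly the 8 members, genes from the 4 of largest log2 ratio per list at 10 CPM or more, and the enzyme gene nearest to each member. Not all of those 4 are named for each list. Galnt6 falls under that rule, while genes cited at 0, neighbours, Serpini1, Cuzd1, Vamp8, Cd44, Rbpjl, Muc5ac, Muc6, Spdef, Lgals4, Krt19, Krt7 and 2210010C04Rik were chosen after their values were seen. The members and the 15 gene lists were chosen with earlier results of these data known. Alternatives were total counts, DESeq2 1.42.0 size factors, digestive enzyme counts, other filters and fold limits, and members left out in turn. Figures used matplotlib 3.10.9.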

Additional observations from a re-analysis of the deposited data

How the results depend on the processing

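No paired analysis was possible because the groups share only 1 replicate number and no test was run. The summed counts of the 8 genes had a ratio of 0.762, which was 0.860 with total counts, 0.758 with DESeq2 size factors and 0.863 with digestive enzyme counts, and 0.751, 0.748, 0.702, 0.712, 0.764 and 0.949 when Gp2, Zg16, Sycn, Rnase1, Serpini2 and Dmbt1, in that order, were left out; Dmbt1 therefore decides the distance of this sum from 1. The median log2 ratio of the 8 genes was -0.17 with total counts, -0.35 with DESeq2 size factors and -0.16 with enzyme counts, so its size depends on the scaling and its direction did not in these settings. The 2 lower calls, Dmbt1 and Tff2, were 0 with total counts, 0 with enzyme counts and 0 at a 4-fold limit, and 3 at a 1.5-fold limit, where 8.87% of all genes were lower. Of 24 single ratios under another scaling, 18 moved beyond their counting interval. That 0 called genes changed direction was fixed in advance, since the scalings moved log2 ratios by at most 0.18 and a call needs a 2-fold ratio. The Spink3 to trypsinogen ratio of 0.796 was 0.676 against Prss2 and Try5 only, and its direction would turn against Try4 alone. Over the whole table, 395 genes were higher and 416 lower; 564 were higher with total counts and 566 with enzyme counts, and the lower calls were 277 with total counts and 271 with enzyme counts. The higher and lower calls were 745 and 814 without a filter, 36 and 95 at 10 CPM, 889 and 914 at a 1.5-fold limit, 78 and 76 at a 4-fold limit, and 99 and 137 with the whole interval beyond 2-fold. Depth limits Spink3 most among the 8 genes, with an interval of 0.700 to 0.794; what limits all of them is the single library per group.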

Other observations

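Among 10 acinar transcription factor genes, several of which drive the genes described above, 0 were called and the median log2 ratio was -0.05, or 0.12 with total counts. Ptf1a, which starts the acinar programme, stood at 12.7 CPM in db/db and 24.8 CPM in db/m, with a ratio of 0.514 (0.436 to 0.605), while its partner Rbpjl was at 164 CPM in db/db and 147 CPM in db/m. Bhlha15, which directs the build-up of zymogen granules, had a ratio of 1.28 (1.21 to 1.36), and Xbp1, a factor of secretory capacity, a ratio of 0.558 (0.536 to 0.581). These ratios, like those of the granule proteins, ran on either side of 1, and without replicates no relation between the 2 sets was assessed.

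Of 12 compared exocrine genes known to be induced in pancreatic injury, 6 were lower, all of the Reg family. Of the others, 1 was higher (Cd44) and 5 were neither, against 4.04% lower and 3.83% higher among all 10300 genes compared. The median log2 ratio of the 12 was -0.98. The ratio was 0.0640 for Reg2 (4169 counts in db/db and 51493 in db/m), 0.0695 for Reg3b, 0.144 for Reg3a and 0.363 for Reg3d. Nupr1 and Clu, which injured acinar cells raise, had ratios of 0.907 and 0.885 and were named after their values were seen. Of 13 trypsinogen genes 8 were higher, 1 was lower and 4 were neither, while their summed counts had a ratio of 0.936 (0.935 to 0.938) with TMM and 1.06 with total counts, so the direction of the sum turned with the scaling. The largest ratios were those of Gm10334 (230, from 12237 counts in db/db and 42 in db/m), Gm2663 (84.1), 1810009J06Rik (75.2) and Gm5771 (67.8). Of the genes listed as relatives of the 8, 0 of 5 compared were called, and 8 of 18 were at 0 in both libraries. That list also holds Rnaset2a and Rnaset2b, which belong to another family. Summed levels were 11.0 CPM in db/db and 12.3 CPM in db/m for immune cell markers, where 1 of 3 compared genes was higher (Lyz2, 2.28-fold, 1.52 to 3.49) and 2 were neither. They were 7.79 CPM in db/db and 5.68 CPM in db/m for stellate cells and fibroblasts, with 0 of 3 called, and 6.04 CPM in db/db and 7.31 CPM in db/m for endothelium, where 1 of 3 was lower (Kdr, ratio 0.488, no call with total counts). Lyz2 and Kdr were named after their values were seen.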
